A study of Mus musculus with 8 samples.

Results

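The synaptic vesicle and release machinery was followed as 32 named genes in ribosome footprints of mouse brain at postnatal day 5. The rule takes genes by symbol and sets no threshold on their values, although the list was drawn up with earlier results of these data known, and for each the coding transcript with the most reads over 8 libraries was counted, after scaling each library to its total. All 32 were found among the 21874 genes with a protein-coding transcript, and all 32 passed the low-count filter of every comparison. By role they comprise 5 proteins of the active zone, 8 of the SNARE and fusion machinery, 3 synaptotagmins, 7 proteins of the vesicle membrane or surface, 3 transmitter transporters, 3 proton pump subunits and 3 endocytosis proteins.

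Brains came from the Taiwanese mouse line for spinal muscular atrophy (SMA), which is caused by too little survival motor neuron protein (SMN), on a congenic FVB background; every animal carried the human SMN2 transgene on a single allele. The SMN immunoprecipitates, 3 libraries, were made from RNase I-digested ribosome pellets of phenotypically normal Smn+/-; SMN2tg/0 brains with an anti-SMN antibody, and 1 library was made in the same way from the same genotype with IgG as the control for unspecific pull-down. RiboLace, a capture of ribosomes in active translation, gave 2 libraries, and polysomes pooled from sucrose gradients gave 2 libraries, all 4 from early symptomatic Smn-/-; SMN2tg/0 brains. The immunoprecipitates therefore differ from the polysome libraries in genotype and in protocol, and these cannot be told apart; RiboLace and polysomes share a genotype and differ in protocol. Whole brains were used, so a change in the number of cells of a type and a change in RNA per cell cannot be told apart.

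Synaptic vesicles are filled with transmitter by transporters that use the proton gradient of the vesicular proton pump. Filled vesicles are tethered in a reserve pool by synapsins, and at the release site they are held by active zone scaffolds and primed. They fuse when the vesicle SNARE Vamp2 zips together with the membrane SNAREs Stx1a and Snap25 under the control of synaptotagmin and complexin. The SNARE complexes are then taken apart by Nsf with its adaptors Napa and Napb, and the vesicle membrane is recovered by clathrin-mediated endocytosis. At this age in the mouse brain, synapse formation is under way, and defects of the neuromuscular synapse are a known feature of SMA models.

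Reads on 1 transcript per coding gene numbered 138239, 133295 and 237760 in the SMN libraries, 206690 in IgG, 47846 and 39375 in RiboLace, and 1661834 and 2295393 in polysomes. No member was without a read in any library, but 10 of 32 had fewer than 10 reads in each RiboLace library, against 2, 4 and 0 in SMN libraries 1, 2 and 3 and 0 in the IgG and polysome libraries. SMN replicate 2 stood apart from the other SMN libraries: its counts differed from those of replicates 1 and 3 with a chi-square of 3.18 and 3.26 per degree of freedom, whereas replicates 1 and 3 differed with 1.34. The pair of RiboLace libraries differed with 1.05 and the pair of polysome libraries with 1.39. The measure rises with read depth, so the low value of the shallow RiboLace pair does not show closer replicates. Counts of members called are given with and without SMN replicate 2. Fold changes of single genes include it.

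Promoters of 28 of the 32 members were matched by symbol to the RefSeq table of mouse build GRCm38.p6. The 250 bases before the start site of the promoter entry are shown for Syp and Rab3a, which were higher in RiboLace than in polysomes, and for Bsn and Pclo, the giant scaffolds that were above polysomes in the SMN immunoprecipitate. The Syp and Rab3a windows end just before the listed gene. Those of Bsn and Pclo reach into it, as the Bsn gene ends at 108190419 and the Pclo gene starts at 14514906. Each is written 5′ to 3′ on the strand of the gene, and capitals mark the searched motifs, found on either strand: the GC box GGGCGG, the CCAAT box and TATAAA.
Syp, plus strand, chrX:7638330-7638579: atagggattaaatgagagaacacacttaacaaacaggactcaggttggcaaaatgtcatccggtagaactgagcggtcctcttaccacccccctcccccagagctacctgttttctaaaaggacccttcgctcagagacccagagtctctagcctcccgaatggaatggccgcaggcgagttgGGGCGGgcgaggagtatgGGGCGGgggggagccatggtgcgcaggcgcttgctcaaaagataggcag
Rab3a, plus strand, chr8:70754453-70754702: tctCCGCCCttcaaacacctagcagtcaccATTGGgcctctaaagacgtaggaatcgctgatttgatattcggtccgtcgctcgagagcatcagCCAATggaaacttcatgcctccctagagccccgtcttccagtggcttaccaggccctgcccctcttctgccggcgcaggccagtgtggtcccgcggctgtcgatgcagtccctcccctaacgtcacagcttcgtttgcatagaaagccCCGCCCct
Bsn, minus strand, chr9:108190384-108190633: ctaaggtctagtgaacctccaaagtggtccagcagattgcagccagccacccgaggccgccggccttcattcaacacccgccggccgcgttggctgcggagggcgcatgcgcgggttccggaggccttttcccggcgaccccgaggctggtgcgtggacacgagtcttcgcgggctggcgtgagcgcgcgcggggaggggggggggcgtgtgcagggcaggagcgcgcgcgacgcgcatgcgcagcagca
Pclo, plus strand, chr5:14514668-14514917: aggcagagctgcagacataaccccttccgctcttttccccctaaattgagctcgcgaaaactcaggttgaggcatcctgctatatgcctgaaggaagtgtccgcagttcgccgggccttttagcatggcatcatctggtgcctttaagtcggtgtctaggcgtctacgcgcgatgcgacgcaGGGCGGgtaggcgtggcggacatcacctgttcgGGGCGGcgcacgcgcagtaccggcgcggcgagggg

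The Syp and Pclo windows each hold 2 GC boxes, that of Rab3a holds 2 GC boxes and 2 CCAAT boxes, and that of Bsn holds none of the motifs. Their G+C content is 56.4% for Syp, 61.2% for Pclo, 58.8% for Rab3a and 71.6% for Bsn. Over the members, 17 of 28 windows held GGGCGG, against 33.0% of the 27025 windows in the table. Those 27025 windows were not limited to protein-coding genes. CCAAT was found in 4 of 28, against 34.5% of all windows, and TATAAA in 1 of 28 (Sv2b), against 13.0%. The median G+C content was 60.0% in the member windows and 52.0% in all windows, and its part in the motif matches was not tested. These matches describe letters only and say nothing of binding.

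Footprint density is the normalised counts per 1000000 reads (CPM) per 1000 bases of coding sequence. It was highest in polysomes on Cplx2, Vamp2 and Atp6v0c and lowest on the active zone genes. Other small proteins lay lower than these 3, with Stx1a at rank 22 and Napa at rank 24. In polysomes, Cplx2, a complexin that binds the assembled SNARE complex, had 869.5 ± 62.5 CPM per kb, Vamp2 had 796 ± 36.3 and Atp6v0c, the subunit of the membrane ring of the proton pump, had 693 ± 50.1 (SD, n = 2). At the other end, Pclo had 8.07 ± 0.0877 CPM per kb, Rims1, the scaffold that links Rab3 on vesicles to the release site, had 8.52 ± 2.11, and Erc1, another scaffold, had 17.1 ± 0.558. The highest and the lowest member lay 108-fold apart in polysomes, 57.8-fold in the SMN libraries, 62.7-fold in IgG and 93.8-fold in RiboLace.

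The order of members was much alike in the 4 kinds of library. Across the 32 members, the rank correlation with polysomes was 0.92 for the SMN libraries, 0.88 for IgG and 0.94 for RiboLace, a description across genes that share libraries and lengths. Syp, the abundant vesicle membrane protein synaptophysin, ranked first in the SMN libraries with 1169 ± 297 CPM per kb (SD, n = 3) and first in RiboLace with 1119 ± 61.2 (SD, n = 2), against 579 ± 19.6 and rank 4 in polysomes. Ap2m1, the cargo-binding subunit of the clathrin adaptor, ranked 7 in the SMN libraries with 496 ± 184 CPM per kb (SD, n = 3) and 6 in IgG with 608, against 229 ± 21.8 and rank 14 in polysomes (SD, n = 2). Slc32a1, the transporter that fills vesicles with GABA and glycine, went the other way, with rank 26 and 101 CPM per kb in IgG, against rank 12 and 254 ± 2.93 in polysomes (SD, n = 2).

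Together the 32 members took 1.14% ± 0.0151 of coding reads in the SMN libraries (SD, n = 3), 1.03% in IgG (95% Wilson interval 0.983% to 1.07%), 1.06% ± 0.0469 in RiboLace (SD, n = 2) and 0.994% ± 0.00927 in polysomes (SD, n = 2). The SMN libraries lay between 1.13% and 1.15%, above both polysome libraries, at 1.00% and 0.988%. Such intervals cover counting error only.

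**Figure D1:**
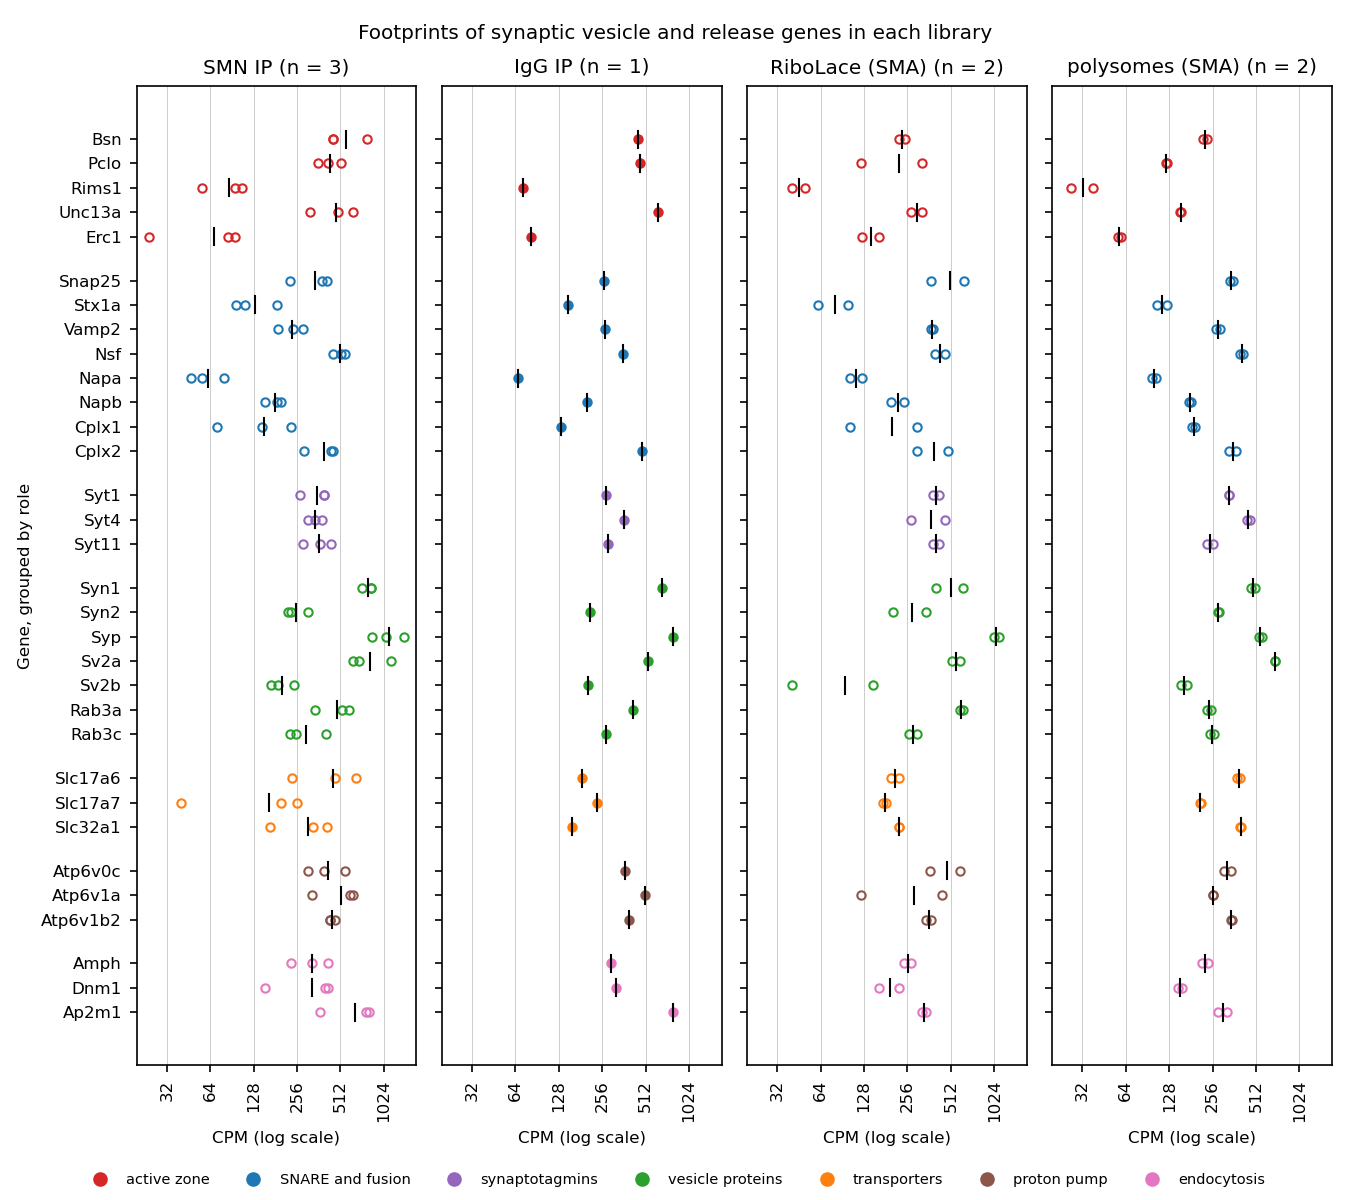
Normalised counts per 1000000 reads (CPM, log scale) of the 32 members in each library, grouped and coloured by role, with one panel per kind of library; each circle is a library and each bar the mean on the linear scale. Most members lie within a similar range in all panels, and Unc13a and Pclo sit higher in both immunoprecipitate panels than in polysomes.

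The first comparison asked which messages the SMN antibody brings down with ribosomes beyond those that IgG brings down. No member was called higher or lower in the SMN immunoprecipitate (edgeR's quasi-likelihood test, p adjusted by Benjamini-Hochberg over all genes tested, threshold 0.05), and among the 5517 genes tested 0% were called higher and 0.0181% lower. The single IgG library was assumed to vary as the SMN libraries do, and the standard errors of the members ran from 0.45 to 0.64 on the log2 scale. At an unadjusted p under 0.05, 1 member was higher and 0 lower, beside 99 and 49 of all genes; DESeq2 called no member and found 0 of them at an unadjusted p under 0.05, and limma-voom called none and found 1. The median log2 fold change was 0.16 over the members and 0.03 over all genes, and 20 of 32 members had a positive value.

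The member with the smallest p was Slc17a6, the vesicular glutamate transporter of subcortical and early postnatal neurons. It had 494, 701 and 254 CPM in SMN replicates 1, 2 and 3, from 59, 81 and 53 reads, against 198 CPM in IgG, from 36 reads (log2 fold change of 1.26 with SE 0.53, unadjusted p = 0.0164, adjusted p = 0.999 from edgeR). All 3 SMN libraries lay above IgG, but the lowest exceeded it by less than the SMN libraries differed among themselves. Slc32a1 had 352, 441 and 178 CPM against 171 CPM (log2 fold change of 0.89 with SE 0.54), with SMN replicate 3 close to IgG. Sv2a, a vesicle glycoprotein and the binding site of the drug levetiracetam, had 728, 1237 and 672 CPM against 567 CPM (log2 fold change of 0.63 with SE 0.48). For all 3 genes SMN replicate 2 was the highest library.

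Below IgG, the members with the smallest p were Slc17a7, Unc13a and Ap2m1, none past the test. Slc17a7, the vesicular glutamate transporter of cortical neurons, had 209, 43.3 and 274 CPM in SMN replicates 1, 2 and 3 against 253 CPM in IgG (log2 fold change of -0.47 with SE 0.51). Its SMN replicate 2 value came from 5 reads, and the other SMN libraries lay on either side of IgG. Unc13a, which primes docked vesicles for release, had 661, 337 and 533 CPM against 666 CPM (log2 fold change of -0.38 with SE 0.45), and Ap2m1 had 812, 398 and 869 CPM against 853 CPM (log2 fold change of -0.29 with SE 0.45). In both, replicate 2 was the lowest SMN library. By role, the median log2 fold change was 0.89 for the transporters, 0.37 for the synaptotagmins, 0.26 for the vesicle proteins, 0.19 for the proton pump, 0.04 for endocytosis, -0.10 for the SNARE and fusion genes and -0.11 for the active zone.

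The second comparison set RiboLace against polysomes within Smn-/-; SMN2tg/0 brains and asked which messages are carried by ribosomes captured as active. Rab3a and Syp were higher in RiboLace and no member was called lower, in a comparison that called 1.31% of 10807 genes higher and 0.925% lower. Rab3a, the small GTPase of vesicles that recruits release site proteins, had 627 and 623 CPM in RiboLace against 292 and 273 CPM in polysomes (log2 fold change of 1.15 with SE 0.24, adjusted p = 2.22e-04). Syp had 1168 and 1022 CPM in RiboLace against 652 and 622 CPM in polysomes (log2 fold change of 0.79 with SE 0.20, adjusted p = 0.00538). For both genes the RiboLace libraries lay close together and well above both polysome libraries, and the RiboLace values rest on 29 and 25 reads for Rab3a and 54 and 41 for Syp. The adjusted p-values are from edgeR's quasi-likelihood test.

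Both calls depended on having 2 RiboLace libraries. Without either of them, with limma-voom or with the replicate number as a block, neither gene was called, although the direction stayed the same. Rab3a has more than 1 coding transcript, and with the transcript chosen by unscaled reads its log2 fold change was 0.83 and was not called; Syp was not called with all 8 libraries in a single fit. The paralogue Rab3c, which shares the role of Rab3a on vesicles, had 281 and 299 CPM in RiboLace against 303 and 285 CPM in polysomes (log2 fold change of -0.02 with SE 0.30).

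The 3 members with the lowest values were Sv2b and the transporters Slc17a6 and Slc32a1, none called. Slc17a6 had 238 and 199 CPM in RiboLace, from 11 and 8 reads, against 438 and 464 CPM in polysomes (log2 fold change of -1.04 with SE 0.32, adjusted p = 0.0526). Slc32a1 had 238 and 224 CPM in RiboLace, against 464 and 471 CPM in polysomes (log2 fold change of -1.01 with SE 0.32, adjusted p = 0.0550). Both RiboLace libraries lay below both polysome libraries in each gene, and the adjusted p of each missed the threshold narrowly; both were called lower with library totals, with no low-count filter and without either polysome library. Sv2b, a relative of Sv2a, had 43.3 and 149.6 CPM in RiboLace, from 2 and 6 reads, against 180.3 and 199 CPM in polysomes (log2 fold change of -1.04 with SE 0.46, adjusted p = 0.231).

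Of the 5 active zone genes, 4 had positive values and none passed the test. Unc13a had 346 and 274 CPM in RiboLace against 180.3 and 177 CPM in polysomes (log2 fold change of 0.81 with SE 0.31, adjusted p = 0.161), and Erc1 had 173 and 125 CPM against 65.5 and 68.6 CPM (log2 fold change of 1.16 with SE 0.48, adjusted p = 0.199). Pclo had 129.8 and 324 CPM against 142 and 144 CPM, with 1 RiboLace library below and the other above the polysome libraries. Bsn, its partner scaffold, had 238 and 249 CPM against 272 and 256 CPM (log2 fold change of -0.11 with SE 0.32). The other members, among them the SNAREs Vamp2, Snap25 and Stx1a, had log2 fold changes between -0.69 and 0.53 with adjusted p of 0.314 or more from edgeR. The median was -0.01 over the members and -0.29 over all genes tested. Both values moved with the low-count filter. With a minimum count of 50 they were 0.21 and -0.06, and with no filter -0.10 and -0.72.

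**Figure D2:**
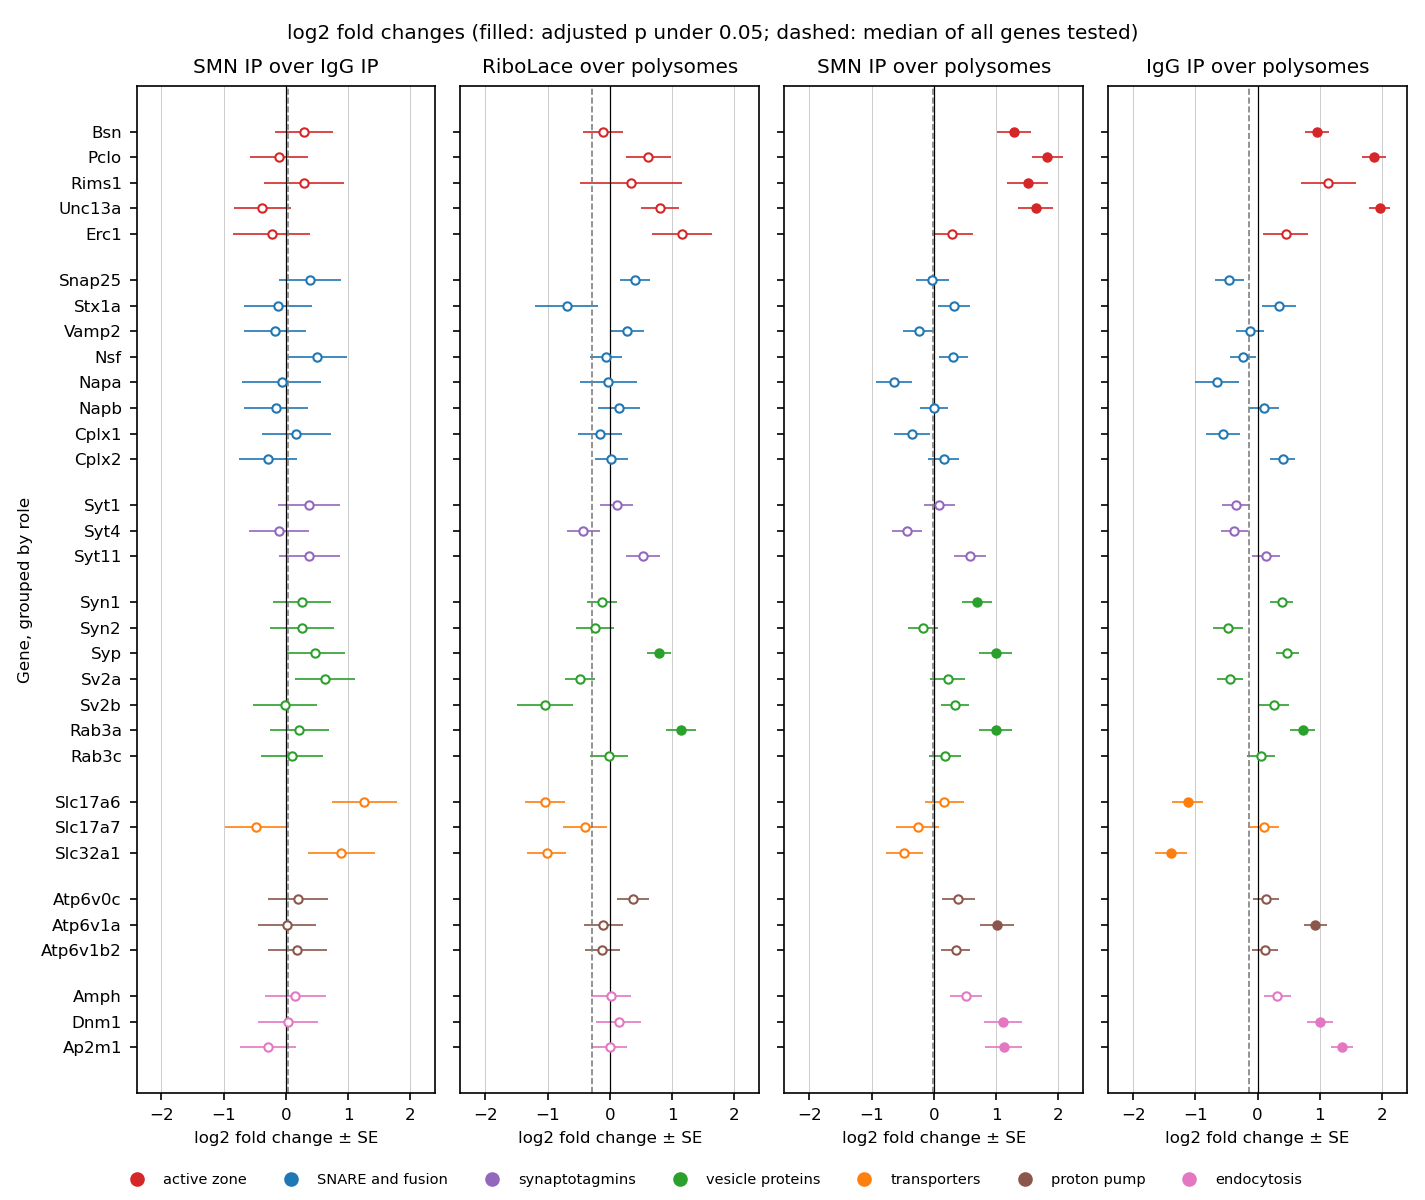
log2 fold changes of the 32 members in the 4 comparisons, with bars of ± 1 SE, filled where the adjusted p was under 0.05, and a dashed line at the median of all genes tested. No circle is filled for the SMN over the IgG immunoprecipitate, Rab3a and Syp are filled for RiboLace over polysomes, 10 genes are filled for SMN and 9 for IgG over polysomes.

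Set against polysomes, the SMN immunoprecipitate held more footprints on 10 members and fewer on none, where 16.4% of 6484 genes were called higher and 11.1% lower. The 10 were Pclo, Unc13a, Rims1 and Bsn of the active zone, Ap2m1 and Dnm1 of endocytosis, Rab3a, Syp and Syn1 on the vesicle, and the proton pump subunit Atp6v1a. The IgG immunoprecipitate, tested against the same 2 polysome libraries, held more footprints on 7 members and fewer on 2, where 10.3% of 12709 genes were called higher and 9.15% lower. Its 7 were Unc13a, Pclo, Ap2m1, Dnm1, Bsn, Atp6v1a and Rab3a. With 1 IgG library, the p-values for IgG rest on the spread between the 2 polysome libraries alone, which differed less (chi-square of 1.39 per degree of freedom) than SMN replicate 2 did from the other SMN libraries (3.18 and 3.26). In a joint fit of all 8 libraries, 3 members (Unc13a, Pclo and Ap2m1) were higher in IgG and 1 (Slc32a1) lower. Because both comparisons share the polysome libraries, their values are given side by side and their likeness is not counted as evidence.

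Of the 5 active zone genes, 4 were called higher in the SMN immunoprecipitate and 3 in IgG. Pclo, a scaffold of giant size, had 472, 392 and 582 CPM in SMN replicates 1, 2 and 3 against 136 and 140.0 CPM in polysomes (log2 fold change of 1.82 with SE 0.25, adjusted p = 1.65e-04). In IgG it had 485 CPM against 132 and 133 CPM (log2 fold change of 1.87 with SE 0.19, adjusted p = 1.31e-11). Every immunoprecipitate library thus lay more than 2-fold above both polysome libraries.

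Unc13a had 703, 348 and 557 CPM in the SMN libraries against 173 and 172 CPM in polysomes (log2 fold change of 1.64 with SE 0.28, adjusted p = 9.28e-04), and 645 CPM in IgG against 168 and 164 CPM (log2 fold change of 1.96 with SE 0.17, adjusted p = 1.38e-13). The lowest SMN library, replicate 2, was still well above polysomes. Bsn had 507, 865 and 512 CPM in the SMN libraries against 261 and 249 CPM in polysomes (log2 fold change of 1.29 with SE 0.27, adjusted p = 0.00408), and 474 CPM in IgG against 253 and 237 CPM (log2 fold change of 0.96 with SE 0.19, adjusted p = 1.57e-04). Here replicate 2 was the highest SMN library, while the other SMN libraries lay near IgG.

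Rims1 had 107, 62.4 and 120.5 CPM in the SMN libraries, from 12, 7 and 24 reads, against 42.3 and 30.1 CPM in polysomes (log2 fold change of 1.51 with SE 0.33, adjusted p = 0.00504); IgG had 74.6 CPM against 41.0 and 28.7 CPM (log2 fold change of 1.13 with SE 0.44, adjusted p = 0.0627). The value of Rims1 hung on the transcript counted: with the transcript of most unscaled reads, the log2 fold change over polysomes was 0.25 for SMN and -0.47 for IgG, neither called. Erc1 did not pass the test, with 107, 26.7 and 95.4 CPM in the SMN libraries against 62.9 and 66.7 CPM in polysomes (log2 fold change of 0.30 with SE 0.33) and 85.2 CPM in IgG against 60.9 and 63.5 CPM (log2 fold change of 0.45 with SE 0.37). SMN replicate 2, with 3 reads of Erc1, lay below polysomes and the other SMN libraries above.

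Among endocytosis genes, Ap2m1 had 863, 410.1 and 909 CPM in the SMN libraries against 358 and 317 CPM in polysomes (log2 fold change of 1.12 with SE 0.30, adjusted p = 0.0136), and 826 CPM in IgG against 347 and 302 CPM (log2 fold change of 1.35 with SE 0.17, adjusted p = 1.85e-08). Dnm1, the neuronal dynamin that pinches vesicles off the membrane, had 472, 169 and 452 CPM in the SMN libraries against 166 and 178 CPM in polysomes (log2 fold change of 1.11 with SE 0.30, adjusted p = 0.0152), and 330.3 CPM in IgG against 161 and 169 CPM (log2 fold change of 1.00 with SE 0.21, adjusted p = 3.34e-04). For Dnm1 the SMN and polysome groups overlapped, since SMN replicate 2 lay between the polysome libraries, and DESeq2 and limma-voom did not call Dnm1 for SMN. With a minimum count of 50 or the replicate block neither Ap2m1 nor Dnm1 was called for SMN, and with summed counts Dnm1 was not. Amph, which binds dynamin at curved membrane, was not called in either, with log2 fold changes of 0.52 (SE 0.26) and 0.32 (SE 0.22).

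On the vesicle, Syp had 1192, 1551 and 954 CPM in the SMN libraries against 626 and 605 CPM in polysomes (log2 fold change of 0.99 with SE 0.26, adjusted p = 0.0130), and 820.4 CPM in IgG against 606 and 576 CPM (log2 fold change of 0.47 with SE 0.18, adjusted p = 0.0605). The IgG value, above both polysome libraries, did not pass the test. Rab3a had 658, 374 and 592 CPM in the SMN libraries against 281 and 266 CPM in polysomes (log2 fold change of 1.00 with SE 0.26, adjusted p = 0.0129), and 432 CPM in IgG against 272 and 253 CPM (log2 fold change of 0.72 with SE 0.20, adjusted p = 0.00585). Syn1, a synapsin that tethers vesicles in the reserve pool, had 943, 918 and 808 CPM in the SMN libraries against 565 and 534 CPM in polysomes (log2 fold change of 0.69 with SE 0.24, adjusted p = 0.0415); IgG had 687 CPM against 547 and 508 CPM (log2 fold change of 0.38 with SE 0.19, adjusted p = 0.151). The Syn1 call for SMN was lost with library totals, with no low-count filter and with a minimum count of 50. It was also lost with summed counts, with the replicate number as a block and with the transcript by unscaled total, where its log2 fold change was 0.57. The Rab3a call for SMN was lost with a minimum count of 50, with summed counts and with the block. Summed counts and the block also lost the Syp call for SMN. The related genes Syn2, Rab3c, Sv2a and Sv2b had log2 fold changes of -0.17, 0.18, 0.22 and 0.34 for SMN and -0.47, 0.05, -0.45 and 0.27 for IgG, none called.

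The catalytic pump subunit Atp6v1a had 667, 357 and 708 CPM in the SMN libraries against 286 and 291 CPM in polysomes (log2 fold change of 1.02 with SE 0.28, adjusted p = 0.0155), and 527 CPM in IgG against 277 and 277 CPM (log2 fold change of 0.93 with SE 0.19, adjusted p = 1.76e-04). The SMN call of Atp6v1a was lost with library totals, a minimum count of 50, summed counts or the replicate block. The partner of Atp6v1a in the same domain, Atp6v1b2, was not called, with 0.35 (SE 0.23) for SMN and 0.12 (SE 0.21) for IgG on the log2 scale. Atp6v0c was not called either, with 0.39 (SE 0.27) and 0.14 (SE 0.21), and since this gene has near-identical processed copies in the mouse genome its reads are uncertain.

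The 2 members called lower in IgG than in polysomes were both transporters. Slc32a1 had 165 CPM in IgG against 431 and 436 CPM in polysomes (log2 fold change of -1.39 with SE 0.26, adjusted p = 7.55e-05), and Slc17a6 had 192 CPM against 407 and 429.8 CPM (log2 fold change of -1.13 with SE 0.25, adjusted p = 8.18e-04). Each was more than 2-fold lower in IgG. In the SMN libraries Slc32a1 had 374, 455 and 186 CPM against 445 and 458 CPM in polysomes (log2 fold change of -0.47 with SE 0.30), and Slc17a6 had 525, 722 and 266 CPM against 420.2 and 451 CPM (log2 fold change of 0.17 with SE 0.32). Neither was called there, and for both genes SMN replicate 3 resembled IgG while replicate 2 lay at or above polysomes. Slc17a7 had 0.11 (SE 0.23) for IgG and -0.26 (SE 0.35) for SMN, not called.

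None of the 8 SNARE and fusion genes was called in either comparison, nor were the synaptotagmins. Napa had 53.4, 62.4 and 90.4 CPM in the SMN libraries against 108 and 118 CPM in polysomes (log2 fold change of -0.64 with SE 0.29, adjusted p = 0.107), with every SMN library below both polysome libraries. Napb, its brain-enriched relative, differed by 0.01 (SE 0.23). Syt4, a synaptotagmin that is not a sensor of fast release, had 427, 374 and 341 CPM in the SMN libraries against 521 and 499.8 CPM in polysomes (log2 fold change of -0.43 with SE 0.24, adjusted p = 0.185). Syt1, the calcium sensor of fast release, stood at 0.09 (SE 0.25) and Syt11 at 0.58 (SE 0.25) on the log2 scale. The core SNAREs Snap25, Stx1a and Vamp2 had -0.02, 0.33 and -0.24 for SMN over polysomes, and -0.46, 0.34 and -0.12 for IgG.

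The median log2 fold change was 0.32 over the members and -0.02 over all genes for SMN over polysomes, and 0.13 and -0.13 for IgG over polysomes. Counts of calls hung on single libraries. Without SMN replicate 2, 14 members were higher and 3 lower, adding Amph, Atp6v0c, Nsf and Syt11 above and Cplx1, Slc32a1 and Syt4 below, where 1755 of 10996 genes were higher and 1593 lower; without replicate 1 or without replicate 3, 4 were higher. Without either polysome library Pclo alone was called. The scaling mattered too: with library totals in place of TMM, the median of all genes was -0.31 in place of -0.02 for SMN over polysomes, 28.7% of all calls were higher in place of 59.6%, and 8 members were higher and 2 lower (Napa and Syt4).

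Fold change over polysomes moved with coding length in both immunoprecipitates. The coding sequence of the members runs from 351 bases for Vamp2 to 15207 for Pclo, with a median of 1488 against 1134 over all coding genes. Across all genes tested, the rank correlation of coding length with log2 fold change was 0.42 for SMN over polysomes, 0.34 for IgG over polysomes and -0.04 for RiboLace over polysomes, a description across genes. Of the genes of 3000 or more coding bases, with the members left out, 43.6% of 1196 were higher in SMN than in polysomes, with a median log2 fold change of 0.69, and 32.4% of 1808 were higher in IgG, with a median of 0.70. The 5 members of that length, all of the active zone, had 4 called higher and a median of 1.51 for SMN, and 3 called higher and a median of 1.13 for IgG. Below 3000 bases, 6 of 27 members were higher for SMN against 10.1% of the other genes, and 4 of 27 for IgG against 6.61%. The part of coding length in these values was not tested.

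**Figure D3:**
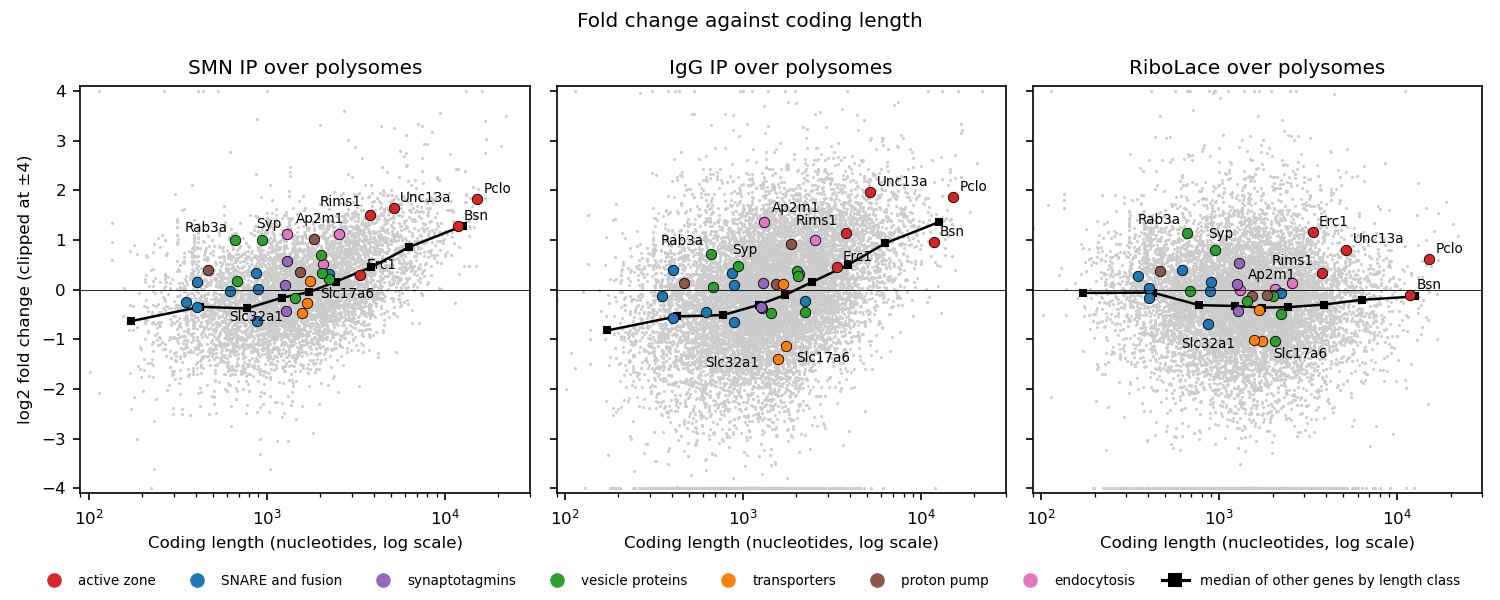
log2 fold change over polysomes against coding length (log scale) for the SMN immunoprecipitate, IgG and RiboLace; grey points are other genes tested, black squares their median by length class, and coloured points the 32 members. In both immunoprecipitate panels the median climbs with length and Pclo and Unc13a lie above it; in the RiboLace panel it does not climb.

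Shares of reads between related genes do not depend on the scaling factor of a library, but they depend on the transcript counted for each gene. For Rab3a and Syn1 that transcript was another one than by unscaled reads, and shares with the other transcript are not given. Shares were compared library by library, with 95% Wilson intervals that cover counting error. Rab3a took 69.8% (60.5 to 77.7), 45.7% (35.9 to 55.8) and 69.8% (62.5 to 76.2) of the reads on Rab3a and Rab3c in SMN replicates 1, 2 and 3. Its share was 60.4% (52.0 to 68.3) in IgG, 69.0% (54.0 to 80.9) and 67.6% (51.5 to 80.4) in RiboLace, and 49.1% (45.9 to 52.3) and 48.9% (46.1 to 51.7) in polysomes. The intervals of SMN replicates 1 and 3 and the first RiboLace library lay above those of polysomes. Those of SMN replicate 2 and the second RiboLace library overlapped with both polysome libraries, and that of IgG with the first only.

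Syn1 took 79.1% (71.5 to 85.1), 73.0% (65.2 to 79.7) and 75.6% (69.4 to 80.9) of the reads on Syn1 and Syn2 in the SMN libraries and 75.9% (68.9 to 81.7) in IgG, against 64.1% (61.7 to 66.6) and 62.8% (60.6 to 64.9) in polysomes. The intervals of SMN replicates 1 and 3 and IgG lay above those of both polysome libraries, that of SMN replicate 2 overlapped with that of the first polysome library, and RiboLace, at 66.7% (48.8 to 80.8) and 64.1% (48.4 to 77.3), overlapped with both. Between Bsn and Pclo, Bsn took 51.8%, 68.8% and 46.8% in the SMN libraries and 49.4% in IgG, against 65.7% and 64.0% in polysomes. SMN replicate 2 was the immunoprecipitate that did not lie below polysomes.

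The glutamate transporters differed most between SMN libraries. Slc17a6 took 70.2% (59.8 to 79.0), 94.2% (87.1 to 97.5) and 48.2% (39.1 to 57.4) of the reads on both genes in SMN replicates 1, 2 and 3. Its share was 43.9% (33.7 to 54.7) in IgG, 55.0% (34.2 to 74.2) and 53.3% (30.1 to 75.2) in RiboLace, and 63.8% (60.9 to 66.6) and 65.7% (63.3 to 68.0) in polysomes. The intervals of the 3 SMN libraries did not overlap one another, so the spread between them exceeds counting error. Set against Slc17a6, Slc32a1 took 41.6% (32.5 to 51.3), 38.6% (30.8 to 47.2) and 41.1% (31.5 to 51.4) of the reads on these 2 transporters in the SMN libraries. This share was 46.3% (34.9 to 58.1) in IgG, 50.0% (30.7 to 69.3) and 52.9% (31.0 to 73.8) in RiboLace, and 51.4% (48.8 to 54.0) and 50.4% (48.2 to 52.5) in polysomes. All 3 SMN libraries and IgG had lower shares than both polysome libraries, with intervals that overlapped those of polysomes except for SMN replicate 2.

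The remaining pairs were Sv2a with Sv2b, Cplx2 with Cplx1 and Napb with Napa. Sv2a took 78.4%, 87.2% and 71.8% of the reads on Sv2a and Sv2b in the SMN libraries, 72.0% in IgG, 93.5% and 77.8% in RiboLace, and 81.7% and 80.3% in polysomes. Cplx2 took 80.0%, 65.9% and 75.0% of the reads on both complexins in the SMN libraries, 78.3% in IgG, 82.8% and 50.0% in RiboLace, and 65.5% and 64.4% in polysomes. The RiboLace libraries lay on either side of polysomes in both pairs, and the SMN libraries did so for Sv2a. The SMN shares of Cplx2 all lay above both polysome shares. The interval of Sv2a in SMN replicate 3 (65.1 to 77.6) lay below those of polysomes (79.7 to 83.6 and 78.6 to 81.9). That of Cplx2 in IgG (70.1 to 84.8) lay above those of polysomes (62.6 to 68.3 and 61.8 to 66.9). Every other interval of these pairs overlapped with that of a polysome library or both. Napb took 80.6%, 73.1% and 70.0% of the reads on Napa and Napb in the SMN libraries, 75.0% in IgG, and 70.6% and 61.5% in RiboLace, against 64.6% and 63.4% in polysomes. The intervals of the SMN, IgG and RiboLace libraries all overlapped with those of polysomes.

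**Figure D4:**
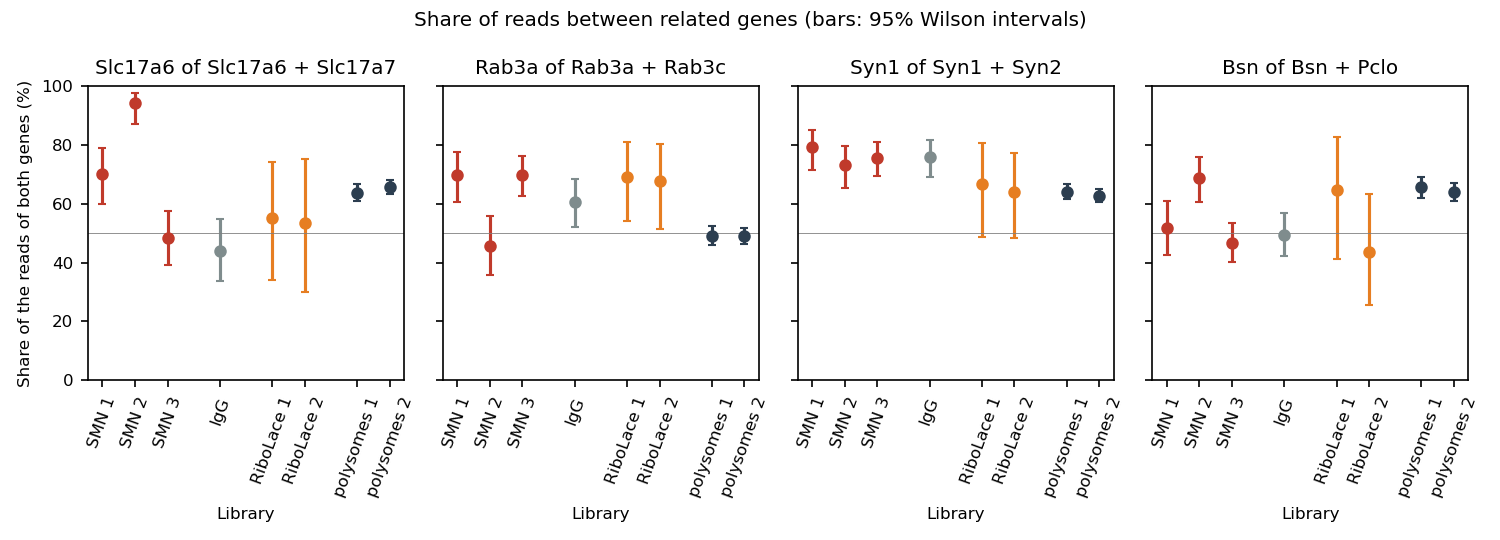
Share of reads (%) that fell on the first of a pair of related genes in each library, with 95% Wilson intervals. Rab3a and Syn1, each counted on the transcript chosen by library-scaled reads, take a larger share in most SMN, IgG and, for Rab3a, RiboLace libraries than in polysomes. The SMN libraries are far apart for Slc17a6, from 48.2% to 94.2%.

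Of 112 other genes of the vesicle cycle, listed beside the members, 111 were in the table. None of 79 tested was called between the SMN and IgG immunoprecipitates, with a median log2 fold change of 0.07. Over polysomes, 17 of 84 were higher and 7 lower in SMN, with a median of 0.07, and 19 of 107 were higher and 19 lower in IgG, with a median of -0.13. In RiboLace over polysomes 1 of 103 was higher and 1 lower. Hspa8, the chaperone that uncoats clathrin vesicles, had 1363 ± 153 CPM in RiboLace against 772 ± 67.3 CPM in polysomes (SD, n = 2 each) (log2 fold change of 0.81 with SE 0.18, adjusted p = 0.00129), and 2078 ± 830.1 CPM in SMN (SD, n = 3) against 746 ± 57.8 CPM (SD, n = 2) (log2 fold change of 1.48 with SE 0.32, adjusted p = 0.00462); it may share reads with near-identical copies. Its cofactor Dnajc6, the neuronal auxilin, had 369 ± 112 CPM in SMN (SD, n = 3) against 162 ± 9.61 CPM in polysomes (SD, n = 2) (log2 fold change of 1.21 with SE 0.26, adjusted p = 0.00429).

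Gak, the auxilin found in all tissues, had 126 ± 65.3 CPM in SMN (SD, n = 3) against 39.5 ± 4.57 CPM in polysomes (SD, n = 2) (log2 fold change of 1.77 with SE 0.33, adjusted p = 0.00187). Stx7, a SNARE of endosomes, was lower, at 112 ± 36.2 CPM in SMN (SD, n = 3) against 324 ± 7.54 CPM in polysomes (SD, n = 2) (log2 fold change of -1.54 with SE 0.28, adjusted p = 0.00168). In IgG over polysomes the genes with the smallest p were Hspa8 (log2 fold change of 1.42 with SE 0.17, adjusted p = 1.76e-09), the clathrin adaptor subunit Ap2a1 (log2 fold change of 1.28 with SE 0.19, adjusted p = 6.01e-07), Dnajc6 (log2 fold change of 1.24 with SE 0.20, adjusted p = 6.20e-06) and the dynamin Dnm2 (log2 fold change of 2.34 with SE 0.40, adjusted p = 1.13e-05), all higher and all from edgeR. Sh3gl1, an endophilin, was the gene called lower in RiboLace, with 23.3 ± 2.33 CPM against 143 ± 21.2 CPM in polysomes (SD, n = 2 each). Its log2 fold change was -2.60 with SE 0.72 (adjusted p = 0.0231 from edgeR). These values rest on 1 read in each RiboLace library, against 251 and 286 reads in the much deeper polysome libraries.

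The summed level of 12 neuron markers was 10114 to 12174 CPM in the SMN libraries, 10475 in IgG and 10291 to 10735 in RiboLace, against 5717 to 6133 in polysomes, and none of the 12 was at 0 in any library. Tubb3, a neuronal tubulin, held the largest part, with 5021, 4852 and 4543 CPM in the SMN libraries, 5173 in IgG and 5125 and 4785 in RiboLace, against 2169 and 1858 in polysomes. Stmn2 had 1409.8, 1647 and 1749 CPM in the SMN libraries, 1523 in IgG and 1912 and 2008 in RiboLace, against 789 and 698 in polysomes. Map2, Elavl3, Rbfox3 and Elavl4 had negative log2 fold changes for SMN over polysomes, of -0.19, -0.50, -0.50 and -0.33, none called. The summed level of the members was 10007 to 10686 CPM in RiboLace, against 8731 to 8998 in polysomes. For RiboLace over polysomes the median log2 fold change was -0.01 over the members and 0.30 over the 12 neuron markers. For SMN over polysomes 6 of 12 were called higher and 0 lower, for IgG 5 higher and 1 lower, and for RiboLace 2 higher (Tubb3 and Stmn2) and 0 lower. Among 9 astrocyte markers 1 was higher and 0 lower for SMN over polysomes, and their sum was 2477 to 3157 CPM in SMN, 2046 in IgG, 2975 to 3437 in RiboLace and 2516 to 2616 in polysomes. Among 8 markers of the oligodendrocyte lineage, 0 were called for SMN and 3 were lower for IgG over polysomes, and the sum was 678 to 1179 CPM in SMN, 467 in IgG, 843 to 997 in RiboLace and 824 to 1005 in polysomes. Mog was at 0 in SMN replicates 1 and 2, IgG and both RiboLace libraries. Microglial sums were 143 to 307 CPM in SMN, 123 in IgG, 244 to 248 in RiboLace and 300.0 to 314 in polysomes, with Tmem119 at 0 in SMN replicates 1 and 2 and both RiboLace libraries. The sum of 5 blood genes was 1800.3 to 2427 CPM in SMN, 1779 in IgG, 5125 to 6223 in RiboLace and 1717 to 2289 in polysomes, and 4 of 5 were called higher in RiboLace than in polysomes. Endothelial sums were 187 to 468 CPM in SMN, 349 in IgG, 124 to 224 in RiboLace and 197.9 to 209.9 in polysomes, and progenitor sums were 419 to 832 CPM in SMN, 441 in IgG, 248 to 407 in RiboLace and 271 to 289 in polysomes. For SMN over polysomes 2 of 4 tested microglial markers were lower and 3 of 4 tested progenitor markers higher, and for IgG 2 of 9 astrocyte and 3 of 6 microglial markers were lower, 2 of 5 endothelial markers higher, and 2 of 6 progenitor markers higher and 1 lower. No marker of any of the 7 lists was called between the SMN and IgG immunoprecipitates by edgeR. The part of these cell types in the members' values was not tested.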

How the data were processed

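Ribosome footprints of 8 libraries were given in 1 deposited table, which per the file headers holds raw read counts per Ensembl transcript, beside the lengths of the transcript and its parts. Per the submitters' processing notes, reads went through Trimmomatic 0.36, Bowtie2 2.2.6 and SAMtools, with build GRCm38.p4; the handling of reads that match several transcripts is not given, so reads shared by isoforms can be counted on each of them. Column totals ran from 105720 to 4936856 reads, and totals over 1 transcript per coding gene from 39375 to 2295393; 3 reads equal 76.2 CPM in the shallowest library.

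The test was edgeR 4.0.16 (R 4.3.3; robust quasi-likelihood fit, two-sided, TMM scaling, low counts removed by filterByExpr at 10) on the libraries of each comparison, with Benjamini-Hochberg adjustment over all genes tested and a threshold of 0.05. The SE was taken as the absolute log2 fold change over the root of the F statistic. CPM beside a comparison carry that comparison's TMM scale, and levels per kb a scale over all 8 libraries. With 1 IgG library, its spread was taken from the other group. Libraries of a group are called biological replicates, per the labels; p-values measure the spread between them. The transcript of a member was the one with the highest library-scaled total, which for 24 of 32 was also the one with the highest unscaled total. The other 8 were Syn1, Syt1, Syt11, Rab3a, Atp6v1a, Rims1, Unc13a and Dnm1. All but Syt1 and Syt11 of these were called higher in SMN over polysomes. The choice used the tested counts and weighted each library equally, so it can favour transcripts read in the shallower immunoprecipitate and RiboLace libraries. By unscaled total, 8 members were higher in SMN over polysomes, without Rims1 and Syn1. Full values are given for members called in a comparison, for the 3 with the smallest p in each direction, for the 3 highest and lowest in polysomes per kb, for related pairs and for up to 4 called genes of the other vesicle list. Like the members, the other lists and the tests were chosen with earlier results of these data known.

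Alternatives were DESeq2 1.42.0, limma-voom (limma 3.58.1), library totals, no filter, filtering at 50, a joint fit of the 8 libraries, counts summed per gene, a replicate block, leaving out single libraries and, added after seeing the data, the transcript by unscaled total. The block is not the main design, since same-numbered libraries did not deviate together (correlation 0.0212 for RiboLace and polysomes, 0.0102 and 0.0322 for SMN and polysomes). The fits were tested on simulated counts. Python 3.11.15, pandas 2.3.3, scipy 1.17.1 and matplotlib 3.10.9 were used for shares, motifs and figures. Control-genotype RiboLace and polysome libraries were not analysed here.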

Additional observations from a re-analysis of the deposited data

How the results depend on the processing

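Depth limits RiboLace most: 10 of 32 members had under 10 reads there. In SMN over IgG, 0 members were called higher or lower under every alternative run, also without each SMN library in turn. In RiboLace over polysomes, members called higher numbered 2, and 0 with limma-voom or the replicate block, 1 with all 8 libraries in 1 fit or the transcript by unscaled total, 5 with counts summed per gene and 0 to 2 with a library left out; members called lower numbered 0, and 2 (Slc17a6 and Slc32a1) with library totals or no low-count filter and 0 to 2 with a library left out. In SMN over polysomes, members called higher numbered 10, and 4 with a minimum count of 50, 5 with summed counts, 3 (Pclo, Unc13a and Bsn) with the replicate block and 1 to 14 with a library left out; members called lower numbered 0, and 2 with library totals, 1 (Syt4) with a minimum count of 50 and 0 to 3 with a library left out. In IgG over polysomes, members called higher numbered 7, and 3 (Unc13a, Pclo and Ap2m1) with all 8 libraries in 1 fit; members called lower numbered 2, and 8 with library totals, 1 (Slc32a1) with all 8 libraries in 1 fit and 6 with summed counts. With library totals 36.5% of all calls in IgG over polysomes were higher, in place of 53.0%. A minimum count of 50 and a left-out library test fewer genes or samples; otherwise the cause was not tested. No member called in a comparison changed direction under any setting run; the value of Rims1 for IgG over polysomes, not called, was -0.47 with the transcript by unscaled total in place of 1.13.

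The replicate numbers are not known to pair libraries. With the replicate block, all calls in RiboLace over polysomes numbered 58 higher and 0 lower, in place of 142 and 100, and in SMN over polysomes 279 and 92, in place of 1062 and 719. No paired analysis was possible because the IgG group has 1 library, which shares 1 number with the SMN group and 1 with polysomes. Leaving out a polysome library from IgG over polysomes leaves 1 library a group with no residual degrees of freedom and was not run.

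With other settings than those that leave out a library, counts of all genes called that moved by over 1.5 times were, for RiboLace over polysomes, 0 higher and 0 lower with limma-voom (825 and 838 at an unadjusted p under 0.05), 5 lower with DESeq2, 258 higher with a minimum count of 50, 69 and 1 with all 8 libraries, 243 and 51 with summed counts and 55 lower with the transcript by unscaled total. For SMN over polysomes they were 378 lower with DESeq2, 372 lower with limma-voom, 636 and 1578 with library totals, 1215 lower with no filter, 194 and 166 with a minimum count of 50, and 681 and 434 with summed counts, and for IgG over polysomes 452 and 161 with DESeq2, 465 lower with limma-voom, 1824 lower with library totals, 703 and 393 with all 8 libraries, and 2141 and 1912 with summed counts. For SMN over IgG, 0 to 3 genes were called in each direction under all settings. With a library left out, RiboLace over polysomes had 31 to 111 higher and 1 to 72 lower, and SMN over polysomes 103 to 1755 higher and 38 to 1593 lower.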
